A study of Mus musculus with 12 samples.

Results

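A set of 10 genes of the pigment-making machinery of melanocytes was followed in the dorsal skin of BALB/c mice with DNCB-induced dermatitis. They were chosen by name: Tyr, Tyrp1 and Dct, which encode the melanin enzymes, Pmel, Mlana and Gpr143, which encode melanosome proteins, Slc45a2 and Oca2, which encode melanosomal transporters, and the regulators Mitf and Mc1r. All 10 were found by symbol among the 36400 genes of the deposited table, and all 10 passed the filter on low values that left 21890 genes for testing. By mean deposited level all 10 were lowest in control skin and higher in DNCB skin. All 10 were highest in the skin of mice that also received mesenchymal stem cells (MSCs). For Mitf and Mc1r, however, the control and DNCB libraries overlapped. In the fit used for testing, the log2 difference of Mitf from control to DNCB was negative, at -0.11.

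Melanin is built inside melanosomes, organelles that melanocytes fill with enzymes and hand over to keratinocytes. In mouse back skin the working melanocytes sit in the bulb of the hair follicle and make pigment in the growth phase of the hair cycle, called anagen, while their stem cells wait in the upper follicle. The transcription factor MITF controls many of the pigment genes, and the receptor MC1R raises MITF activity through cyclic AMP. BALB/c mice are albino, because they carry an inactive form of tyrosinase, and they also carry the brown form of Tyrp1. Their melanocytes transcribe pigment genes without making visible pigment, so the values below are transcript levels and say nothing of coat colour.

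RNA was sequenced from 12 libraries of dorsal skin, 3 in each of 4 groups of female BALB/c mice that were 6 weeks old when bought. Back hair of the mice was removed with clippers and cream before the experiment and shaved again during it. Control mice, labelled Solvent, received the vehicle of acetone and olive oil. DNCB mice were sensitized with 1% 1-chloro-2,4-dinitrobenzene (DNCB), a contact allergen, and challenged repeatedly with 0.5% DNCB. The scMSC mice were treated with DNCB in the same way and received 4 injections of human umbilical cord MSCs from day 13 to day 25, each of 2000000 cells in 100 µL under the skin. In the scivMSC mice each dose was divided, 50 µL going under the skin and the other 50 µL into a tail vein. Skin was collected on day 30 in all groups. None of the 12 libraries came from mice that received MSCs without DNCB. No injection without cells is described for the DNCB mice, so the design does not separate the cells from the injections.

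Levels are given as FPKM, fragments per kilobase of transcript scaled to the library's mapped fragments. The libraries held 63877153 to 75134001 estimated counts each. The labelled tissue was checked with 5 keratinocyte genes, whose summed level was 4970 to 19400 FPKM over the 12 libraries. Differences were tested on the estimated counts with the quasi-likelihood test of edgeR after TMM scaling, over all 21890 genes. Calls required an adjusted p (Benjamini-Hochberg) below 0.05 together with a log2 fold change above 1 or below -1. With 3 libraries against 3, an exact two-sided permutation test of a single gene could not go below 0.1. Log2 fold changes are written with the standard error of the fit, and group levels as mean ± SD. In bulk skin, fewer melanocytes and less RNA per melanocyte cannot be told apart.

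The promoters of the genes show what links several of them in sequence. RefSeq windows from 250 bases before to 50 bases after the start site were at hand for 6 of the 10 genes, in the assembly GRCm38.p6, which is that of the C57BL/6J strain and not of BALB/c. The letters TCATGTG, or CACATGA on the other strand, form the core of the M-box, a motif known to be bound by MITF. They stood in the windows of 4 of these genes, Tyr, Tyrp1, Dct and Mc1r, and in 3.77% of all 32851 windows. The 4 windows are printed in the direction of transcription with each match in capitals.

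Tyr: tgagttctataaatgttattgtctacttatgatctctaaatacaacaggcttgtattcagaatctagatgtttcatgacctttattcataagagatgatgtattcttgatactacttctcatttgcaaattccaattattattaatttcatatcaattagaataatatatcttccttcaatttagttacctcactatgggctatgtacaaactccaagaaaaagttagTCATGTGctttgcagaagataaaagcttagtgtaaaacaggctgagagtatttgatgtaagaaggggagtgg
Tyrp1: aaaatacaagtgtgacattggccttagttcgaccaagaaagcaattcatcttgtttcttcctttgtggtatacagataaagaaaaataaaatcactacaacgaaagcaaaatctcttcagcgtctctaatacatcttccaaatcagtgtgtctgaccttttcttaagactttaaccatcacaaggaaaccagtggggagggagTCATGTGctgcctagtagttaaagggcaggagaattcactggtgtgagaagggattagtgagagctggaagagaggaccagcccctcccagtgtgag
Dct: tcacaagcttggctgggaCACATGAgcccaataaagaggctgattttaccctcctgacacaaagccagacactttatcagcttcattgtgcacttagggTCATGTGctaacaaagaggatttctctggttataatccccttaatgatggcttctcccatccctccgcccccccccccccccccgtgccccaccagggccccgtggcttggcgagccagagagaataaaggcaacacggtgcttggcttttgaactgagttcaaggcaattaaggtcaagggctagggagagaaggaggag
Mc1r: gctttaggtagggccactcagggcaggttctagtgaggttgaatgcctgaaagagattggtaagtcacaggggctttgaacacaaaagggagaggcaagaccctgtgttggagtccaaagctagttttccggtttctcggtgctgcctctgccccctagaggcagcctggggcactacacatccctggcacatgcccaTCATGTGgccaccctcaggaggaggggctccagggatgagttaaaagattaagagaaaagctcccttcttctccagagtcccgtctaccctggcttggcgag

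The Tyr window spans chr7:87493463-87493762 on the minus strand, and its match lies at positions -22 to -16 from the start site. The Tyrp1 window spans chr4:80833963-80834262 on the plus strand, with the match at -47 to -41. In Dct, at chr14:118052197-118052496 on the minus strand, there were matches at -151 to -145 and, in reverse, at -232 to -226. The Mc1r window at chr8:123406832-123407131 on the plus strand holds a match at -52 to -46. In Tyr, Tyrp1 and Dct, the match sits in the same 10 letters, GTCATGTGCT, which were picked out after the windows had been read and occur in 0.186% of all windows. The window of Oca2 and the 3 windows of Mitf held no TCATGTG on either strand. The last of the Mitf windows, at chr6:97991533-97991832 on the plus strand, is shown because it holds TGACGTCA, a palindrome known as the cyclic AMP response element, in capitals.

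Mitf: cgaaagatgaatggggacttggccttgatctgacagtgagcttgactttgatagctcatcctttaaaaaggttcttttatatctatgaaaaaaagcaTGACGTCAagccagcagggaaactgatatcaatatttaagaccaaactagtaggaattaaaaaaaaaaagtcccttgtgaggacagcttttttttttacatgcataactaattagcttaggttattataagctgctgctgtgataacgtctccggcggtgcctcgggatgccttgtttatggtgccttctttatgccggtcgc

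That match lies at -153 to -146, and 1.79% of all windows hold the same letters. These matches are descriptions of the reference sequence, and no binding was measured in the skin. The windows of Pmel, Mlana, Slc45a2 and Gpr143 were not analysed here.

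Tyrosinase, encoded by Tyr, carries out the rate-limiting step of melanin synthesis. The gene lies on chromosome 7, from 87424771 to 87493512 on the minus strand of GRCm38. Tyr stood at 0.461, 0.809 and 0.209 FPKM in the 3 control libraries and at 2.54, 2.25 and 2.29 FPKM in the DNCB libraries. The lowest DNCB library was therefore above the highest control library, and the DNCB libraries lay close together. In scMSC skin Tyr reached 3.29, 5.45 and 9.32 FPKM, and in scivMSC skin 3.72, 3.37 and 5.45 FPKM. All 6 libraries of MSC-treated mice were above the DNCB libraries, and the 2 treated groups overlapped. Tyr rose by 2.05 ± 0.49 on the log2 scale from control to DNCB, with an edgeR adjusted p of 0.0118. From DNCB the log2 difference was 1.38 ± 0.48 in scMSC (adjusted p 0.0887) and 0.85 ± 0.47 in scivMSC (adjusted p 0.328), and neither was called.

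Tyrp1 encodes a related protein that acts late in the synthesis of brown-black eumelanin and was called in more comparisons than any other of the 10 genes. It lies on chromosome 4, from 80834123 to 80851718 on the plus strand. Its levels were 3.66, 4.68 and 3.13 FPKM in control, 16.8, 14.6 and 21.3 FPKM in DNCB, 38.6, 33.0 and 66.1 FPKM in scMSC and 37.8, 45.3 and 30.4 FPKM in scivMSC libraries. No control library overlapped the DNCB libraries, and no DNCB library overlapped a treated one. Tyrp1 was called in 5 of the 6 comparisons. The log2 fold change was 2.00 ± 0.27 from control to DNCB (edgeR adjusted p 0.000959), 1.40 ± 0.27 from DNCB to scMSC (adjusted p 0.00701) and 1.11 ± 0.26 from DNCB to scivMSC (adjusted p 0.0289). Against control, Tyrp1 was 10.6-fold higher in scMSC and 8.65-fold higher in scivMSC, with adjusted p-values of 0.000655 and 0.00119 from edgeR.

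Dct encodes dopachrome tautomerase, which acts between the other two enzymes, and is used early in the melanocyte lineage. The gene lies on chromosome 14, from 118012790 to 118052185 on the minus strand, and overlaps 4930435M08Rik on the other strand. It was measured at 5.42, 8.12 and 3.27 FPKM in control, 19.6, 19.0 and 22.4 FPKM in DNCB, 25.5, 36.9 and 66.4 FPKM in scMSC and 23.9, 27.1 and 39.4 FPKM in scivMSC libraries. The groups of control, DNCB and MSC-treated libraries did not overlap, as for Tyr and Tyrp1. Dct rose by 1.66 ± 0.40 (log2) in DNCB over control, with an edgeR adjusted p of 0.0126. The further differences from DNCB were 1.10 ± 0.40 in scMSC and 0.59 ± 0.39 in scivMSC, with adjusted p-values of 0.102 and 0.425, and were not called.

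Pmel encodes the protein that forms the fibrils on which melanin is laid down. It was the most abundant of the 10 genes in the DNCB and scMSC libraries, and Tyrp1 was above it in scivMSC replicates 1 and 2. Its levels were 30.7, 32.8 and 38.8 FPKM in DNCB, 40.9, 55.5 and 132 FPKM in scMSC and 35.3, 41.6 and 66.5 FPKM in scivMSC. Control libraries held 7.51, 12.3 and 3.1 FPKM. Control and DNCB libraries did not overlap, whereas DNCB and scivMSC libraries did. Pmel rose by 1.95 ± 0.54 (log2) in DNCB over control (edgeR adjusted p 0.0224), and its difference from DNCB was 1.18 ± 0.53 in scMSC (adjusted p 0.188) and 0.51 ± 0.52 in scivMSC (adjusted p 0.628). The gene lies on chromosome 10, from 128704195 to 128715627 on the plus strand. It overlaps Cdk2 on the other strand, and the sources used here do not state whether the counting used strand.

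Mlana encodes the melanosome protein MART-1, which assists in the maturation of PMEL, and lies on chromosome 19, from 29697824 to 29708634 on the plus strand. Control libraries spread widely, at 1.48, 3.34 and 0.346 FPKM, and the DNCB libraries held 4.0, 3.91 and 6.81 FPKM. The levels were 14.6, 22.7 and 43.9 FPKM in scMSC and 10.8, 10.1 and 23.7 FPKM in scivMSC. Every treated library was above every DNCB library. Mlana was called between DNCB and scMSC, at a log2 fold change of 2.49 ± 0.72 (edgeR adjusted p 0.0445), and not between control and DNCB, at 1.29 ± 0.70 (adjusted p 0.208). Both comparisons use the DNCB libraries, and the difference between these steps was not tested.

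Gpr143 encodes a receptor in the melanosome membrane that is the gene of ocular albinism in humans, and it was the least abundant of the 10 in most libraries. The gene lies on the X chromosome, from 152781921 to 152808646 on the plus strand. It was at 0.118, 0.154 and 0 FPKM in control, 0.328, 0.234 and 0.417 FPKM in DNCB, 1.44, 2.25 and 3.07 FPKM in scMSC and 0.656, 0.934 and 1.35 FPKM in scivMSC libraries. All 4 groups were apart from each other, but the control values rest on 18, 23 and 0 estimated counts. About 4 estimated counts stand for 1 fragment here, and a library with no count allows up to 3 fragments, or 12 estimated counts, for counting error only. The log2 fold change from DNCB to scMSC was 2.80 ± 0.82 (edgeR adjusted p 0.0486), and that from control to DNCB was 1.60 ± 0.83 (adjusted p 0.192).

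Both transporters regulate conditions inside the melanosome, and both had large fold changes with large errors. Slc45a2 lies on chromosome 15, from 11000721 to 11029233 on the plus strand. It stood at 0.431, 0.806 and 0.0361 FPKM in control, 1.06, 1.88 and 2.13 FPKM in DNCB, 1.95, 5.19 and 13.7 FPKM in scMSC and 2.56, 2.04 and 3.91 FPKM in scivMSC. The scMSC libraries differed 7.03-fold among themselves, and 1 of them lay within the DNCB range. Slc45a2 was called only between control and scMSC, at a log2 fold change of 3.83 ± 0.95 and an edgeR adjusted p of 0.0184.

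Oca2 encodes the P protein, an anion channel of the melanosome, and lies on chromosome 7, from 56239760 to 56536518 on the plus strand, overlapping Gm44506 on the other strand. Its levels were 0.0781, 0.38 and 0 FPKM in control, 0.471, 0.544 and 1.19 FPKM in DNCB, 2.33, 4.88 and 6.7 FPKM in scMSC and 2.18, 1.42 and 4.35 FPKM in scivMSC libraries. The control values rest on 23, 112 and 0 estimated counts. Oca2 had the highest fitted fold change of the 10 genes, with log2 values of 4.72 ± 1.14 in scMSC and 3.92 ± 1.10 in scivMSC over control (edgeR adjusted p 0.0165 and 0.0395). The values moved with the control libraries left out: they were 6.61 and 5.81 without control replicate 2, and 4.09 and 3.28 without control replicate 3. In scivMSC the value was also 3.28 without scivMSC replicate 3. Its differences from DNCB, 2.69 ± 1.02 in scMSC and 1.89 ± 1.00 in scivMSC, were not called (adjusted p 0.121 and 0.300).

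Mitf followed another course. The gene lies on chromosome 6, from 97807052 to 98018707 on the plus strand, overlaps Gm15531 on the other strand, and has several promoters, whose transcripts are summed in its value. Besides melanocytes, it is used by mast cells, macrophages and other cells. Mitf stood at 5.14, 4.47 and 4.6 FPKM in control and 4.78, 4.24 and 5.9 FPKM in DNCB libraries, which overlapped. It reached 11.1, 18.1 and 14.6 FPKM in scMSC and 9.86, 6.79 and 6.78 FPKM in scivMSC. All scMSC libraries were above all scivMSC libraries, and all scivMSC libraries were above all DNCB libraries. From DNCB to scMSC Mitf rose by 1.59 ± 0.22 (log2, edgeR adjusted p 0.00239), and from DNCB to scivMSC the difference was 0.66 ± 0.22 (adjusted p 0.0955). Its log2 difference between DNCB and control was -0.11 ± 0.22 with an adjusted p of 0.754. The sign of that small value turned to positive, at 0.071, with scaling by library size alone, and limma on FPKM gave positive values of 0.052 to 0.06.

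Mc1r encodes the receptor for melanocyte-stimulating hormone. The gene lies on chromosome 8, from 123407107 to 123410744 on the plus strand, and overlaps Gm20388 on the same strand and Gm38092 on the other, so that reads may be divided among them. It was measured at 0.266, 0.677 and 0.0296 FPKM in control, 0.492, 0.807 and 1.55 FPKM in DNCB, 1.3, 1.99 and 12.3 FPKM in scMSC and 1.18, 0.956 and 2.98 FPKM in scivMSC. A single scMSC library stood far above the rest, and control overlapped with DNCB, and DNCB with both treated groups. Mc1r was called only between control and scMSC, at a log2 fold change of 3.79 ± 1.12 (edgeR adjusted p 0.0397). That value was 2.17 without scMSC replicate 3, 3.18 without control replicate 3 and 4.87 without control replicate 2.

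**Figure D1:**
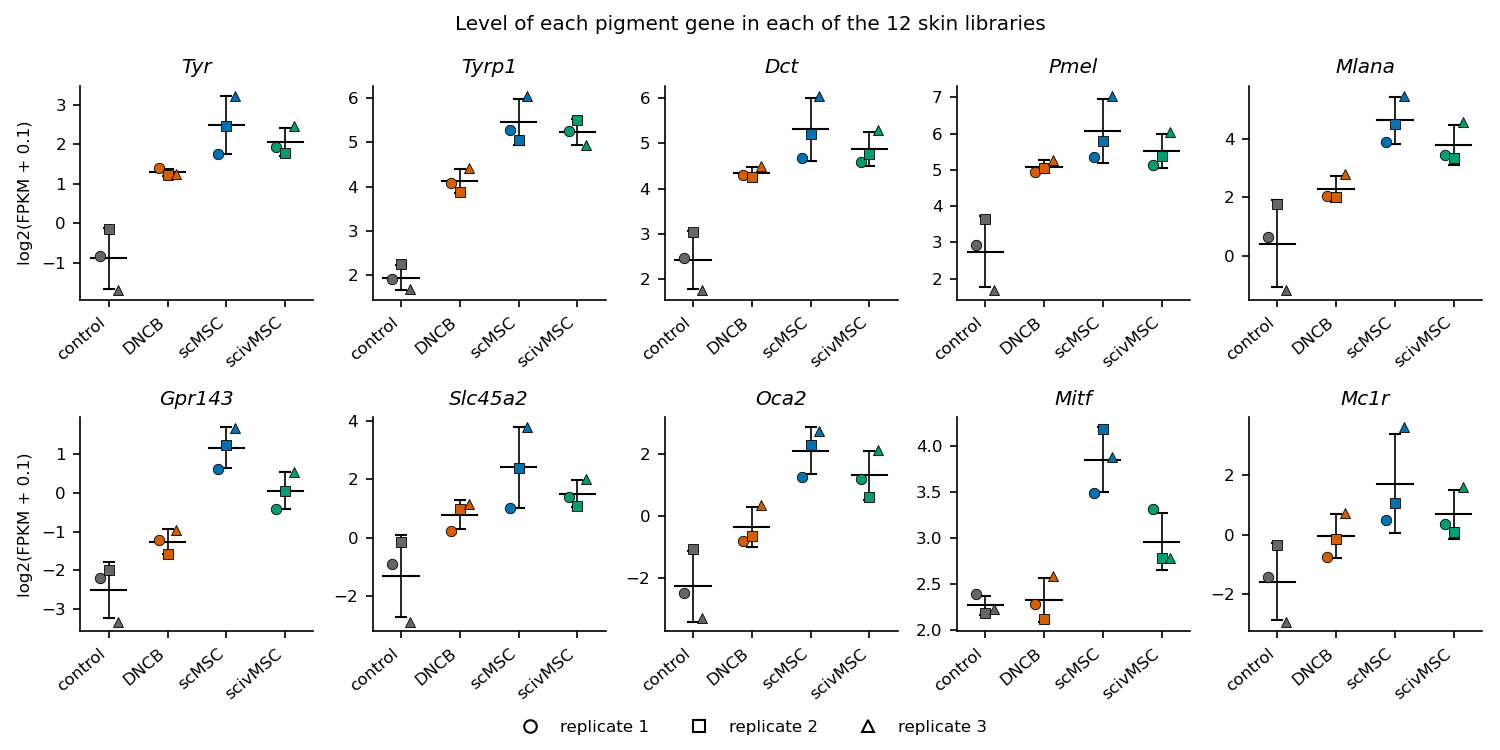
Level of each pigment gene, as log2(FPKM + 0.1), in the 12 libraries by group, with a separate vertical scale in each panel. Symbols are libraries, with their shape giving the replicate number, horizontal lines are means and bars ± SD (n = 3). In 9 of the 10 panels the lowest point is control replicate 3 and the highest is scMSC replicate 3, while in the Mitf panel control and DNCB overlap.

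The first comparison asked which of the genes differed in dermatitis. Between control and DNCB, 4 of the 10 genes were called higher and 0 lower, while 6.59% of all tested genes were called higher and 7.57% lower. The 4 genes were Tyr, Tyrp1, Dct and Pmel. The median log2 fold change of the 10 genes was 1.71, against 0.02 over all tested genes. In 8 of them every DNCB library was above every control library, which held for 31.7% of all tested genes. The other 6 were not called: Mlana, Gpr143, Slc45a2, Oca2 and Mc1r had log2 values of 1.29 to 2.03, and Mitf had -0.11. Tyr, Tyrp1 and Dct were called whichever library was left out, but Pmel was not called without control replicate 1 or DNCB replicate 3 (edgeR adjusted p 0.0705 and 0.0601).

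The next comparisons asked how these genes differed between the skin of MSC-treated mice and DNCB skin. Between DNCB and scMSC, 4 of the 10 genes were called higher and 0 lower, with 4.66% of all tested genes called higher and 3.84% lower. These were Tyrp1, Mlana, Gpr143 and Mitf. The same DNCB libraries enter this comparison and the one with control. The 10 log2 fold changes ran from 1.10 to 2.80 with a median of 1.83, against 0.02 over all tested genes. In 8 genes the scMSC libraries were all above the DNCB libraries, as in 16% of all tested genes. Mitf and Tyrp1 were called whichever library was left out. The call of Mlana was lost when control replicate 1, any DNCB replicate, scMSC replicate 2 or 3, or scivMSC replicate 1 or 2 was left out (edgeR adjusted p 0.0531 to 0.143), and that of Gpr143 was lost without any library but control replicate 3 (adjusted p 0.052 to 0.155).

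Between DNCB and scivMSC, 1 of the 10 genes, Tyrp1, was called higher and 0 lower, with 3.13% of all tested genes called higher and 2.33% lower. All 10 had a positive log2 fold change, from 0.51 to 1.89, with a median of 0.86 against 0.02 over all tested genes. In 7 of them the groups did not overlap, as in 16.4% of all tested genes. The call of Tyrp1 was lost without any of the DNCB replicates or without scivMSC replicate 1 or 2, with edgeR adjusted p-values of 0.0513 to 0.11.

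Against control, the treated groups differ by DNCB as well as by MSCs, and these comparisons do not separate them. They use the same control libraries as the first comparison. In scMSC skin all 10 genes were called higher and 0 lower, with 5.12% of all tested genes called higher and 4.2% lower, and in all 10 the groups did not overlap, as in 25.9% of tested genes. The log2 fold changes ran from 1.48 for Mitf to 4.72 for Oca2, with a median of 3.60. Single libraries moved several folds: without scMSC replicate 3 the log2 value of Pmel went from 3.13 to 2.5 and that of Slc45a2 from 3.83 to 2.92, without control replicate 2 Mlana went from 3.78 to 4.66 and Slc45a2 to 4.64, and without control replicate 3 Gpr143 went from 4.4 to 3.76 and Slc45a2 to 3.23. The calls of 3 genes depended on single libraries. Slc45a2 was not called without control replicate 1 or scMSC replicate 3 (edgeR adjusted p 0.0665 and 0.06), Oca2 was not called without control replicate 1 (adjusted p 0.0668), and Mc1r was not called without control replicate 1 or 3, any DNCB replicate, scMSC replicate 2 or 3, or scivMSC replicate 1 (adjusted p 0.0504 to 0.175).

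In scivMSC skin 7 of the 10 genes were called higher than in control and 0 lower, with 3.5% of all tested genes called higher and 3.35% lower, and in all 10 the groups did not overlap, as in 24.3% of tested genes. The log2 fold changes ran from 0.54 to 3.92 with a median of 2.72. Slc45a2, Mitf and Mc1r were not called, at 2.54 ± 0.90, 0.54 ± 0.22 and 2.20 ± 1.06 with edgeR adjusted p-values of 0.0905, 0.134 and 0.206. Without control replicate 1, 3 of the 10 were called: Pmel and Mlana were lost (adjusted p 0.0616 and 0.0953), together with Gpr143 and Oca2. Mlana was also lost without scivMSC replicate 3 (adjusted p 0.0626), when its log2 value went from 2.92 to 2.33, and without that library 4 of the 10 were called. Without control replicate 2 the value of Mlana was 3.8, and without control replicate 3 that of Gpr143 went from 3.20 to 2.57. Gpr143 was lost without control replicate 1 or 2, DNCB replicate 1 or any scivMSC replicate (adjusted p 0.0513 to 0.0858), and Oca2 without control replicate 1, any DNCB or scivMSC replicate, or scMSC replicate 2 or 3 (adjusted p 0.051 to 0.137).

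The routes of injection were compared directly between scMSC and scivMSC skin. None of the 10 genes was called, with 0% of tested genes called higher and 0.00457% lower, and DESeq2 called 0 of the 10 as well. The log2 fold changes, scMSC over scivMSC, were all positive, from 0.29 ± 0.26 for Tyrp1 to 1.58 ± 1.02 for Mc1r, with a median of 0.83. Only Mitf had an unadjusted edgeR p below 0.05, at 0.00139, with a log2 value of 0.93 ± 0.22 and an adjusted p of 0.565. With DESeq2 its adjusted p was 0.0328 at a log2 value of 0.96, under the fold limit for a call, and over the other settings with all libraries the adjusted p ran up to 0.847. Mitf and Gpr143 were the 2 genes whose groups did not overlap, as in 5.67% of tested genes. Without scMSC replicate 3, the log2 values of Tyrp1 and Mc1r turned negative, to -0.048 and -0.037.

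**Figure D2:**
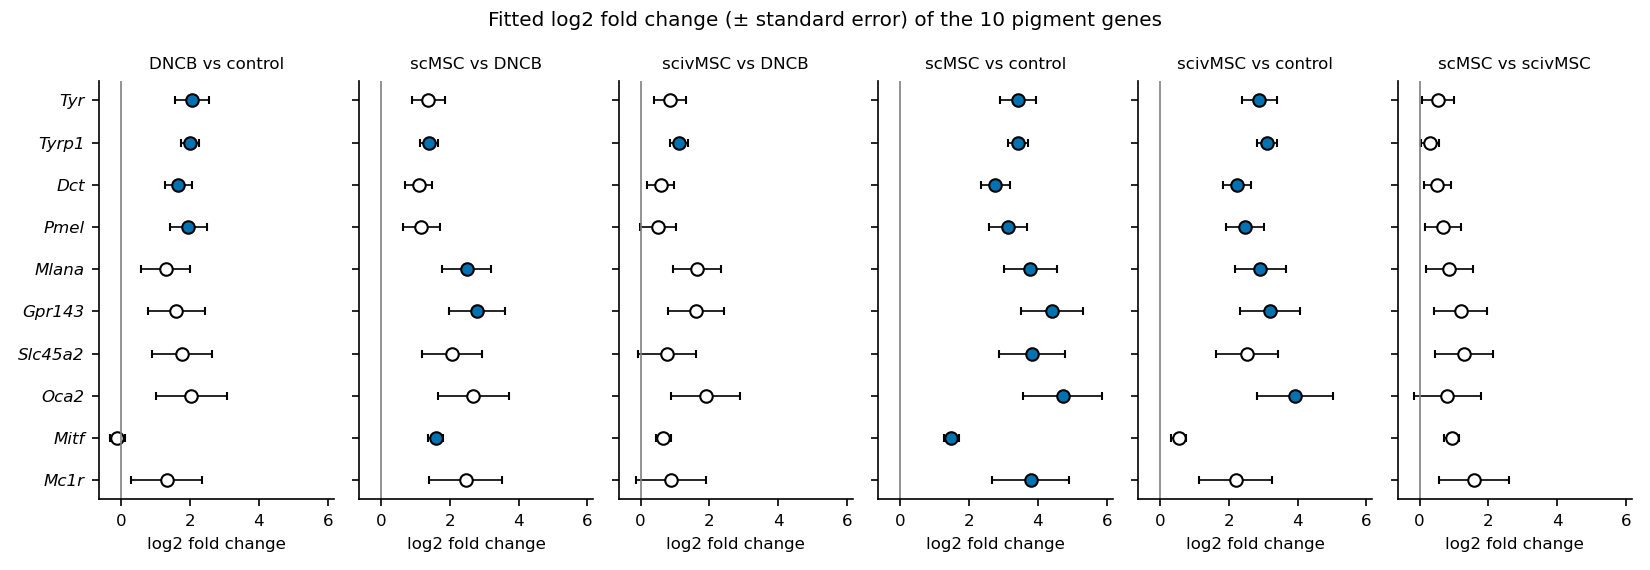
Fitted log2 fold changes of the 10 pigment genes in the 6 comparisons, as the group named first over the group named second. Points are edgeR estimates with bars of ± 1 standard error, filled where the gene was called, and Mitf is the only gene near 0 between DNCB and control, at -0.11 ± 0.22.

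Added over the 10 genes, control libraries held 24.6, 35.7 and 14.7 FPKM, and DNCB libraries 80.7, 80.3 and 103 FPKM. The sums were 141, 186 and 368 FPKM in scMSC and 128, 140 and 185 FPKM in scivMSC libraries. For Tyr and Dct the spread within a group was smallest in DNCB, with coefficients of variation of 6.58% and 8.86%. In scMSC skin the same coefficients were 50.8% and 49.2%, with replicate 3 highest in both. The labels do not say whether equal replicate numbers link libraries across groups, and they name no batch.

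The makeup of the sum also differed. Mitf gave 12.5% to 31.2% of it in control libraries, 5.29% to 5.93% in DNCB, 3.96% to 9.75% in scMSC and 3.67% to 7.71% in scivMSC. Dct kept a narrow share, 22.1% to 22.7% in control and 18% to 24.3% elsewhere. Mlana took 2.35% to 9.35% in control, 4.88% to 6.63% in DNCB, 10.3% to 12.2% in scMSC and 7.24% to 12.8% in scivMSC. The DNCB and scMSC ranges did not overlap. The control range enclosed that of DNCB, and the scivMSC range enclosed that of scMSC. The ratio of Tyrp1 to Dct, both in FPKM, was 1.52 in scMSC replicate 1, 1.58 in scivMSC replicate 1 and 1.67 in scivMSC replicate 2. In the other 9 libraries it lay between 0.577 and 0.996, so the treated groups were each divided in this ratio.

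The other known genes of the lineage were taken from lists of 14 regulators and receptors, 14 signals of the surroundings and 26 further melanosome genes. All 54 passed the filter. From control to DNCB 6 were called higher and 2 lower, beside 6.59% and 7.57% of all tested genes. From DNCB to scMSC the numbers were 8 and 3, beside 4.66% and 3.84%, and from DNCB to scivMSC they were 4 and 1, beside 3.13% and 2.33%. Against control, 14 were called higher in scMSC and 9 in scivMSC, beside 5.12% and 3.5%, with 0 lower in either, beside 4.2% and 3.35%. The list medians were small: in scMSC over control they were 0.39 for the regulators, 0.86 for the signals and 0.37 for the melanosome genes, against 0 over all tested genes.

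Among the receptors, Kit, the receptor tyrosine kinase on which melanoblasts and mast cells depend, stood at 0.995, 1.15 and 1.08 FPKM in control and 2.34, 2.33 and 2.46 FPKM in DNCB libraries. Its log2 difference of 0.95 ± 0.25 had an edgeR adjusted p of 0.0172 but was under the fold limit. In scMSC skin it reached 3.1, 3.67 and 7.01 FPKM and was called over control at 1.93 ± 0.25 (adjusted p 0.00126). In scivMSC skin it was at 3.06, 3.25 and 3.15 FPKM and was called over control as well, at 1.37 ± 0.25 (adjusted p 0.00781). Ednrb, the endothelin receptor of the lineage, was also called over control in scMSC, at 1.19 ± 0.38 with an adjusted p just under the limit. Pax3, a transcription factor of melanoblasts, followed at 1.75 ± 0.50 (adjusted p 0.0346).

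Sox10, which acts upstream of Mitf and marks Schwann cells as well, was not called in any comparison. Its levels were 3.29, 3.45 and 3.45 FPKM in control, 2.52, 3.65 and 3.14 FPKM in DNCB, 4.12, 3.54 and 7.75 FPKM in scMSC and 3.4, 2.89 and 5.51 FPKM in scivMSC. Replicate 3 was highest in both treated groups, as it was for most pigment genes. Tfec, a relative of Mitf used in macrophages, moved the other way: it rose from control to DNCB by 2.29 ± 0.64 (log2, edgeR adjusted p 0.0231), and fell by 2.47 on that scale from DNCB to scMSC (adjusted p 0.0289). Lef1, a Wnt effector of the follicle bulb and of melanocytes, was not called in DNCB over control, at -0.42 ± 0.53 (adjusted p 0.618), and rose by 3.53 ± 0.58 from DNCB to scMSC (adjusted p 0.00406) and by 2.57 ± 0.56 from DNCB to scivMSC (adjusted p 0.0216).

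Of the signals, Kitl, the ligand of KIT, stood at 4.78, 5.43 and 4.92 FPKM in control, 7.36, 6.46 and 8.26 FPKM in DNCB, 10.3, 8.36 and 17.8 FPKM in scMSC and 8.23, 9.04 and 8.11 FPKM in scivMSC. It was called in scMSC over control alone, at 1.10 ± 0.22 (log2, edgeR adjusted p 0.00758). Edn1, an endothelin made by keratinocytes, rose by 1.14 ± 0.32 from DNCB to scMSC and by 1.23 ± 0.32 to scivMSC (adjusted p 0.0381 and 0.0388). Corin, a protease of the dermal papilla that limits agouti action, rose by 2.29 ± 0.41 and 1.96 ± 0.41 in the same comparisons (adjusted p 0.00576 and 0.0182). Its libraries held 0.411 to 0.76 FPKM in DNCB and 1.78 to 3.93 FPKM in the treated groups. Wnt10b, a Wnt ligand of the growing follicle, was called from DNCB to scMSC at 2.03 ± 0.55 (adjusted p 0.0345).

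Edn3 and Asip were not called in any comparison. Edn3, the endothelin that supports melanoblasts, stood at 0.167 to 0.218 FPKM in DNCB and at 3.17 FPKM in scMSC replicate 3, with 0.283 and 0.434 FPKM in the other scMSC libraries. Asip encodes agouti, the antagonist of MC1R, and its row is named a in the table. It was likewise highest in scMSC replicate 3, at 4.12 FPKM, against 0.196 and 0.438 FPKM in the other scMSC libraries. The same library held the high value of Mc1r. Asip overlaps Raly and Gm14226 on its own strand and Eif2s2 on the other, so its counts are uncertain.

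Among the further melanosome genes, Trpm1 and Slc24a5, which have a known part in pigment cells, were called in scMSC over control. Trpm1, a cation channel under MITF control, stood at 0.13, 0.725 and 0.0767 FPKM in control, 1.23, 1.64 and 1.26 FPKM in DNCB, 3.22, 5.54 and 8.19 FPKM in scMSC and 3.13, 2.38 and 4.9 FPKM in scivMSC. Its log2 fold change in scMSC over control was 3.99 ± 0.78 (edgeR adjusted p 0.00624). It was called in scivMSC over control too, at 3.28 ± 0.76 (adjusted p 0.0182). Slc24a5, a cation exchanger of the melanosome, rose by 3.71 ± 0.93 in scMSC over control (adjusted p 0.0197). In scivMSC over control Slc24a5 was not called, at 2.48 ± 0.88 (adjusted p 0.0932). Neither was called between control and DNCB, at 1.92 ± 0.72 and 1.55 ± 0.86 (adjusted p 0.0737 and 0.217). Gpnmb, a relative of Pmel that macrophages also use, and Mlph, which ties melanosomes to their motor, were called both in DNCB and in scMSC, at 1.38 ± 0.30 and 1.40 ± 0.32 from control to DNCB (adjusted p 0.00748 and 0.0097), and 1.81 ± 0.30 and 1.39 ± 0.32 from DNCB to scMSC (adjusted p 0.00447 and 0.0171). From DNCB to scivMSC neither was called, at 0.64 ± 0.30 and 0.60 ± 0.32 (adjusted p 0.231 and 0.294).

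In the same list, Slc7a11 and Tpcn2 were higher in DNCB than in either control or scMSC skin. Slc7a11, a cystine transporter, was at 3.53 to 4.6 FPKM in DNCB and 0.214 to 0.317 FPKM in control, a log2 fold change of 3.89 ± 0.46 (edgeR adjusted p 0.000653). From DNCB it fell by 2.22 in scMSC and fell by 2.94 in scivMSC (adjusted p 0.00795 and 0.00562). Tpcn2, an ion channel of lysosomes and melanosomes, rose by 1.54 ± 0.25 in DNCB (adjusted p 0.00191) and fell by 1.05 from DNCB to scMSC (adjusted p 0.019). Both genes are also used outside pigment cells.

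**Figure D3:**
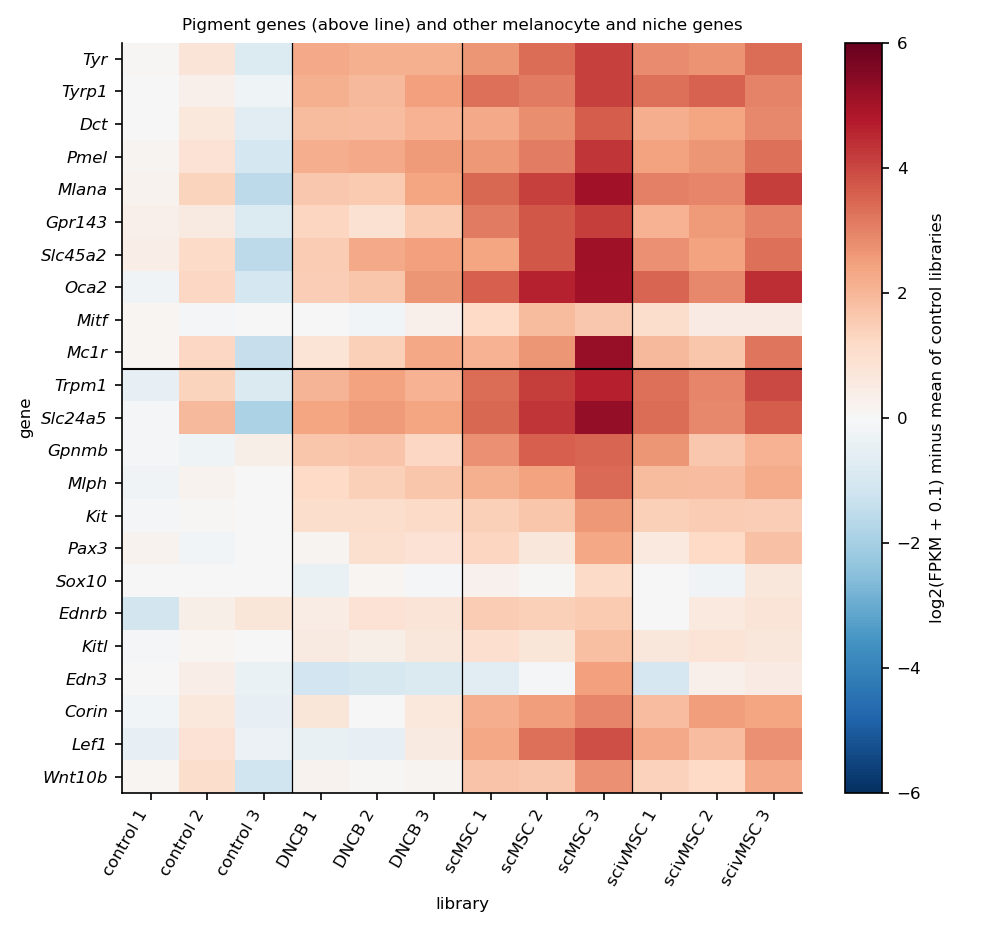
Pigment genes (above the line) and other melanocyte, signal and follicle genes (below it) in each library, as log2(FPKM + 0.1) minus the mean of the control libraries. Columns are libraries by group. In DNCB, Mitf is close to the control mean, while the other pigment genes, Trpm1 and Slc24a5 are above it, some only faintly.

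Because pigment genes are used in growing follicles, a list of 16 genes of the hair shaft, inner root sheath and growing bulb was set beside them, of which 15 were found by symbol and tested. From control to DNCB 2 of the 15 were called higher, from DNCB to scMSC 10 and from DNCB to scivMSC 5, with 0 lower in each. Over all tested genes, 6.59%, 4.66% and 3.13% were called higher in these comparisons, and 7.57%, 3.84% and 2.33% lower. The median log2 fold changes of the 15 were 1.91, 4.55 and 2.87, against 0.02 over all tested genes in each. The hair keratin Krt34 stood at 0.0629, 0.903 and 0.0663 FPKM in control, 3.69, 1.42 and 10.2 FPKM in DNCB, 194, 610 and 218 FPKM in scMSC and 157, 46.4 and 91.6 FPKM in scivMSC. It was called at each step. Between control and DNCB, 13 of the 15 had a positive log2 fold change, and Krt33a was also called, at 3.13 ± 0.89 (edgeR adjusted p 0.0249). Hoxc13 and Msx2, transcription factors of the hair matrix, were not called there. Their values were negative, at -0.44 ± 0.39 and -0.31 ± 0.62 (adjusted p 0.466 and 0.765). From DNCB to scMSC, Hoxc13 and Msx2 rose by 3.29 ± 0.43 and 3.95 ± 0.69 (adjusted p 0.00199 and 0.00501).

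Summed over the list, the libraries held 22.1, 358 and 13.2 FPKM in control, 462, 316 and 982 FPKM in DNCB, 6980, 19800 and 10200 FPKM in scMSC and 6430, 2620 and 3660 FPKM in scivMSC. Control replicate 3 was lowest and control replicate 1 next for both this sum and the pigment sum, and the 6 treated libraries were the 6 highest for both. Control replicate 2 and DNCB replicate 2 had similar follicle sums, 358 and 316 FPKM, and pigment sums of 35.7 and 80.3 FPKM, a pair that was picked out after the values were seen. The most abundant genes dominate the follicle sum, so this pair is not matched gene by gene. Shh, Msx2 and Hoxc13 were higher in control replicate 2, at 4.92, 4.99 and 9.75 against 2.51, 1.41 and 4.38 FPKM. Tchh, Padi3 and Foxn1 were lower in it, at 32.6, 3.38 and 3.08 against 56.1, 5.23 and 5.3 FPKM. The highest follicle sum was in scMSC replicate 2 and the highest pigment sum in scMSC replicate 3. The part of follicle growth in the pigment differences was not tested.

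**Figure D4:**
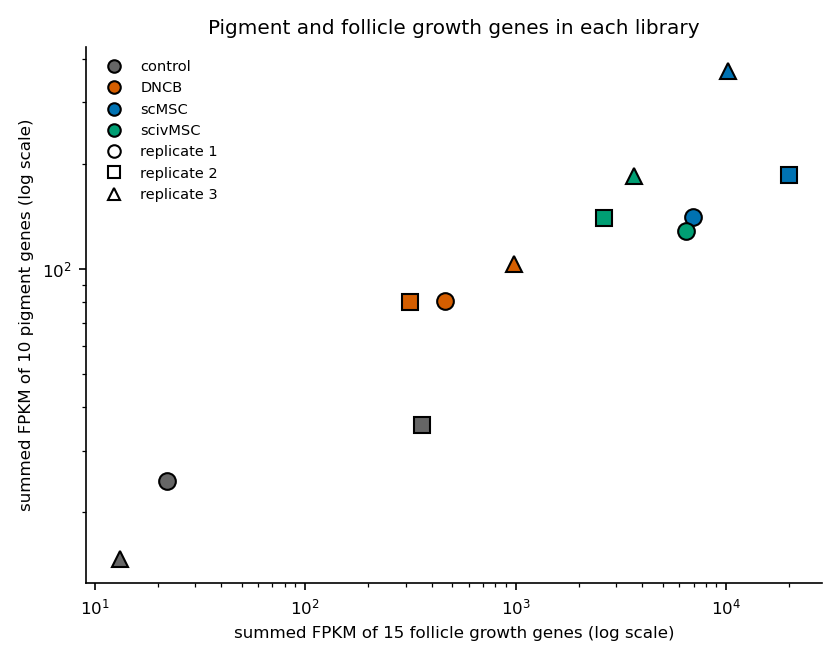
Summed FPKM of the 10 pigment genes against the summed FPKM of 15 follicle growth genes, both on log axes, with 1 point per library. Colours are groups and shapes replicates. The 3 DNCB libraries, at pigment sums of 80.3 to 103, lie above control replicate 2, at 35.7. Their follicle sums are 316 to 982, against 358 in control replicate 2, a library picked out after the values were seen.

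A list of 8 genes of resting follicles or of follicle stem cells was measured as well. Because the list mixes both, a call in it does not by itself mark rest. From control to DNCB 2 were called lower and 0 higher, beside 7.57% and 6.59% of all tested genes, with a median of -0.71. Krt15, a keratin of the bulge, was at 674, 493 and 420 FPKM in control and 242, 179 and 139 FPKM in DNCB, a log2 change of -1.69 ± 0.37 (edgeR adjusted p 0.00726). Fgf18, a growth factor of the resting follicle, fell by 2.21 (adjusted p 0.00356). From DNCB the list medians were 0.54 in scMSC and 0.74 in scivMSC. Foxc1, 1 of the 8, was called higher in both, at 2.38 ± 0.31 and 1.58 ± 0.30 (adjusted p 0.00199 and 0.0126), and 0 were called lower. Over all tested genes, 4.66% and 3.13% were called higher in these comparisons, and 3.84% and 2.33% lower.

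Cells that share Mitf, Kit, Sox10 or Gpnmb with melanocytes were checked by their own markers. Of 8 mast cell genes, 3 were called higher in DNCB than in control, beside 6.59% of all tested genes. They were Hdc, Fcer1a and Tpsb2, at 4.08 ± 0.61, 3.6 ± 0.64 and 1.95 ± 0.57 (log2, edgeR adjusted p 0.00137, 0.00283 and 0.0282). The other 5 were not called, with log2 values from -0.1 for Gata2 to 1.51 for Cpa3 (adjusted p 0.1 to 0.914). The paper cites raised Hdc in keratinocytes of patients, so Hdc alone does not mark mast cells. The summed mast cell list held 22.4 to 38.7 FPKM in control, 106 to 127 FPKM in DNCB, 49.7 to 116 FPKM in scMSC and 16.5 to 111 FPKM in scivMSC. Mitf overlapped between control and DNCB while that sum did not. Of 6 macrophage genes none was called in any comparison. Their sum was 180, 193 and 696 FPKM in control replicates 1, 2 and 3 and 653 to 696 FPKM in DNCB. It was 146 to 352 FPKM in scMSC and 42.4 to 367 FPKM in scivMSC. Control replicate 3, which alone reached the DNCB range, was also the lowest library for the pigment sum. Mitf was highest in scMSC replicate 2, where the macrophage sum was 146 FPKM and the mast cell sum 50.9 FPKM.

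Of 8 Schwann cell genes, 2 were called lower in DNCB than in control, beside 7.57% of all tested genes. The sum of the 8 was 57.4 to 65.3 FPKM in control, 22.3 to 36.2 FPKM in DNCB, 35.9 to 67.7 FPKM in scMSC and 29.0 to 59.7 FPKM in scivMSC. No gene of these 3 lists was at 0 in all libraries. In scivMSC replicate 3 all 3 sums were lowest in their group, at 16.5, 42.4 and 29.0 FPKM, while its pigment sum was the highest of the group at 185 FPKM. The part of these cell types in the values of the shared genes was not tested.

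The 10 genes differed in how closely each followed their common profile over the 12 libraries. That profile was the mean of their log2(FPKM + 0.1) values, each gene first centred and divided by its SD. The Pearson r of each gene with that mean, which includes the gene itself, ran from 0.94 to 0.989 for 9 of them and was 0.794 for Mitf. Among 14377 other genes whose mean reached 1 FPKM, the most alike to the profile was E2f3, a cell cycle transcription factor, with a Pearson r of 0.993 and a Spearman rho of 0.986. Its group means were 2.99 FPKM in control, 4.33 FPKM in DNCB, 6.65 FPKM in scMSC and 5.26 FPKM in scivMSC, so its range was much smaller than that of the pigment genes. The next were Slc24a4 (r 0.979), a cation exchanger, Ptgds (r 0.978), a prostaglandin D synthase, Trpm1 (r 0.977), Heyl (r 0.977), a Notch target, Nhs (r 0.975) and Pcdh19 (r 0.974). Slc24a5, Efnb1 and Samd1 completed the 10 genes, at r of 0.968 to 0.97. Trpm1 and Slc24a5 thus came up by likeness as well as by list. These are descriptions over 12 libraries that share 4 groups and carry no test.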

How the data were processed

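For 36400 genes in 12 libraries of dorsal skin, the authors deposited FPKM, which corrects for transcript length and library size. The authors also deposited estimated counts, which are whole numbers without normalization between libraries. Per the submitters' processing notes in the labels, Bowtie 0.12.2, HISAT2 2.0 and StringTie 1.3.0 were named, with the build mm8, but the coordinates in the table are those of GRCm38: 36287 identifiers are in GENCODE M21, and 36248 overlap their position there. The strand setting of the counting and the annotation are not given in the sources used here. Multiples of 4 made up 38.9% to 41.2% of the low estimated counts (1 to 18) of each library, so about 4 estimated counts were taken as 1 fragment. A count of 0 allows 3 fragments, which covers counting error only.

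The 21890 genes whose mean reached 0.1 FPKM were fitted in 1 model of the 4 groups with edgeR 4.0.16 in R 4.3.3 (TMM, quasi-likelihood F-test), and p-values were adjusted over all of them in each of 6 comparisons. The common biological coefficient of variation was 0.42. Standard errors were derived from the F statistic. FPKM does not carry the TMM scaling, so a fold of mean FPKM can differ from the fitted fold. The labels do not say whether the libraries of a group are separate mice, so p-values measure the spread between libraries. The fit was also run on counts simulated from its own estimates of spread, which checks the code and not whether these data meet its assumptions.

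The members and all gene lists were chosen with earlier results of these data known. The text names all 10 pigment genes, from each further list those called with the largest fold changes and a few genes of known melanocyte function, and the 10 genes most alike to the pigment profile. Krt85 was not found by symbol. Alternatives used DESeq2 1.42.0 and limma 3.58.1 on log2(FPKM + 0.1), with pseudocounts of 0.01 and 1, other scalings and filters, counts divided by 4, a fit of only the groups compared, the replicate number as a block and each library left out in turn. Promoters are RefSeq sequences of GRCm38.p6. Tables used Python 3.11.15 and pandas 2.3.3, and figures matplotlib 3.10.9.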

Additional observations from a re-analysis of the deposited data

How the results depend on the processing

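Signs of the fitted changes of the 10 pigment genes held under the alternatives run, apart from these. The log2 value of Mitf between DNCB and control turned positive with library size alone (0.071) and with limma on log2(FPKM + 0.1), log2(FPKM + 0.01) and log2(FPKM + 1) (0.059, 0.06 and 0.052). With single libraries left out, the log2 values of scMSC over scivMSC ran from -0.048 to 0.43 for Tyrp1 and from -0.037 to 2.29 for Mc1r, and the negative values came without scMSC replicate 3. With each library left out in turn, the number of pigment genes called ran from 3 to 5 for DNCB against control, 2 to 6 for scMSC against DNCB, 0 to 2 for scivMSC against DNCB, 7 to 10 for scMSC against control, 3 to 7 for scivMSC against control and 0 to 0 for scMSC against scivMSC. Of the 26 calls over the 6 comparisons, 15 held in every such fit and 11 were lost in at least 1. Calls were gained as well: for DNCB against control Oca2 without control replicate 2 (edgeR adjusted p 0.0324), for scMSC against DNCB Tyr without control replicate 3 or scMSC replicate 1 (0.0389 and 0.0435), Dct without scMSC replicate 1 (0.0429) and Oca2 without control replicate 3 (0.0307), and for scivMSC against DNCB Gpr143 without control replicate 3 (0.0446). For scMSC against DNCB the 4 pigment genes called became 7 with DESeq2 and 2 with limma on log2(FPKM + 0.01), and for scivMSC against control the 7 became 3 in a fit of only the 2 groups compared. The causes of these changes were not tested. Little sign of pairing by replicate number was seen, which does not exclude it. Of 18 pairs with the same number, the correlation of deviations ran from -0.185 to 0.133 and was over 0.1 in 1. With the replicate block, 2 pigment genes were called for scMSC against DNCB, 0 for scivMSC against DNCB and 4 for scivMSC against control. With library size alone the median over all tested genes shifted to 0.203, 0.159 and 0.214 for DNCB, scMSC and scivMSC against control, and the share of calls that were higher went from 46.5% to 60.8%, from 54.9% to 68.8% and from 51.1% to 66.7%. The FPKM values carry the same shift. Over all tested genes, those called higher for DNCB against control were 1442, 2833 without the fold limit, 2192 with limma at a pseudocount of 0.1 and 2242 at 0.01. For scMSC against control 1120 became 2271 without the fold limit and 731 without scMSC replicate 2, and for scMSC against DNCB 1021 became 665 with limma at a pseudocount of 1. For scivMSC against control 766 became 1557 without the fold limit, 1174 and 1235 with limma at 0.1 and 0.01, 406 with only the 2 groups, 407 without control replicate 1 and 495 without scivMSC replicate 2. For scivMSC against DNCB 686 became 280 to 387 without any DNCB replicate or without scivMSC replicate 1 or 3. DESeq2 called 59 genes higher in scMSC than in scivMSC, against 0 with edgeR. Depth limits Gpr143, Oca2, Slc45a2 and Mc1r in control skin, where replicate 3 held 0 to 8 estimated counts of each.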
